A study of Mus musculus with 6 samples.

Results

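The granzymes and perforin were examined in mouse regulatory T (Treg) cells that had been differentiated with or without sorafenib (Sora), a kinase inhibitor given for liver cancer. The 10 genes were taken by name: Gzma, Gzmb, Gzmc, Gzmd, Gzme, Gzmf, Gzmg, Gzmk, Gzmm and Prf1. Of these, 7 were measured among 22939 genes in all, and 6 of the 7 passed the filter on low counts. Gzmd, Gzme and Gzmg were not analysed here. Naive CD4+ T cells came from the spleen and lymph nodes of female mice on a C57BL/6 background that carry GFP in the endogenous Foxp3 locus. In both groups the cells were stimulated through CD3 and CD28 and polarized with TGF-β1 while IFN-γ and IL4 were blocked by antibodies, and GFP+ cells were sorted for RNA-seq. The control (ctrl-Treg) group and the Sora-Treg group each had 3 libraries and differed in the addition of Sora. The concentration used for the sequenced cells, a vehicle and the age of the mice were not given in the sources used here. It is not stated whether the libraries came from separate cultures or mice, so p-values measure only the spread between these libraries.

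Granzymes are serine proteases that cytotoxic lymphocytes store in secretory granules, together with perforin, a protein that forms pores in the membrane of a target cell. After release, perforin lets granzymes reach the cytoplasm of the target, where granzyme B cleaves caspases and other substrates. Treg cells can also carry granzyme B and perforin and use them against effector T cells and antigen-presenting cells. Inhibitors of the serpin family protect the cell that makes granzymes from its own enzymes.

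Total counts per library ranged from 30727686 to 37717324. Levels are given as counts per 1000000 counts (CPM) after TMM scaling, and 3 counts corresponded to between 0.0795 and 0.0976 CPM, a floor that covers counting error only. Differences were tested with the quasi-likelihood test of edgeR over 13463 genes with Benjamini-Hochberg adjustment. A call of higher or lower needed both an adjusted p under 0.05 and a change of more than 1 on the log2 scale. An exact permutation test of 3 libraries against 3 cannot go below 0.1, so no single value was tested alone. The Treg markers Foxp3 and Cd4 were well expressed in both groups, at 258 ± 8.98 and 272 ± 4.74 CPM for Foxp3 and 679 ± 2.07 and 708 ± 17.5 CPM for Cd4 in ctrl-Treg and Sora-Treg cells (mean ± SD, n = 3). Both differed by under 0.1 on the log2 scale. Of 8 Treg and CD4 markers tested, 1 was called higher, the inhibitory receptor gene Ctla4, and none lower. The shares over all genes tested were 6.3% and 4.97%. Without the fold limit 7 of the 8 were higher and none lower, while 59.6% of all genes passed in either direction. Their median log2 fold change was 0.37, with 0.97 for Il2ra, 0.81 for Tnfrsf18 and 0.60 for Cd3e.

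The stretches before the start sites of 5 members are shown because these genes rose in Sora-Treg cells, and because they hold the letters of binding motifs of T cell transcription factors. They are RefSeq sequence on GRCm38.p6, written 5′ to 3′ on the strand of the gene, from position -250 to position -11 relative to the RefSeq start at position 0. Gzmb is at chr14:56262345-56262584 on the minus strand, Gzma at chr13:113100992-113101231 on the minus strand, and Prf1 at chr10:61297586-61297825 on the plus strand. Gzmc is at chr14:56234668-56234907 and Gzmk at chr13:113180976-113181215, both on the minus strand. Capitals mark matches, on either strand, to the Runx motif TGTGGT, the AP-1 motif TGANTCA, the cyclic AMP response element TGACGTCA, the T-box motif TCACACC or the Blimp-1 core GNGAAAG.
Gzmb: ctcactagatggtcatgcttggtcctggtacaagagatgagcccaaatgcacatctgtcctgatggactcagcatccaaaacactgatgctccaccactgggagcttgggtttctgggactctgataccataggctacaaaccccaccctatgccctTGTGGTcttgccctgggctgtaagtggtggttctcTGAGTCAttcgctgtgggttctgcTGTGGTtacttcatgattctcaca
Gzma: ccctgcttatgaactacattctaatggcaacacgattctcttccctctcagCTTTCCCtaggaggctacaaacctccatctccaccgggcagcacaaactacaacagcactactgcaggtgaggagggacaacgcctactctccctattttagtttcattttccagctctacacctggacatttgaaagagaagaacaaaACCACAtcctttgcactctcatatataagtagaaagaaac
Prf1: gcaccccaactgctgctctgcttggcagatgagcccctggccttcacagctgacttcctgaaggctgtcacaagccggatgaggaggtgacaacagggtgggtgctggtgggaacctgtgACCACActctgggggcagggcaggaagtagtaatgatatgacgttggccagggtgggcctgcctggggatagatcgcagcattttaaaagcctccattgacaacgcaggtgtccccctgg
Gzmc: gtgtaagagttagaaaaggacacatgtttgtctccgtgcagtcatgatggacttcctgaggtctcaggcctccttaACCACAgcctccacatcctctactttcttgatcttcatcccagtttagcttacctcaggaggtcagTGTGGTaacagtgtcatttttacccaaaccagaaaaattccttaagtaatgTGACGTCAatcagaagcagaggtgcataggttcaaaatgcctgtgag
Gzmk: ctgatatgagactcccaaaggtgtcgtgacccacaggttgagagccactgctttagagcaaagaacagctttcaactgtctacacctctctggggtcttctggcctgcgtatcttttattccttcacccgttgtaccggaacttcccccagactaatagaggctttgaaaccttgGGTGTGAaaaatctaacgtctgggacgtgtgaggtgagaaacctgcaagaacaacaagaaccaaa

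Motifs were counted over the whole RefSeq window, 250 bases before to 50 after the start, in which all 10 members had an entry. The Runx motif was present in 9 of the 10 windows, all but that of Gzmk, and in 16.8% of 32851 windows of all genes. In Gzmb it lay at positions -93 to -88 and -34 to -29, in Gzma at -50 to -45 and in Prf1 at -130 to -125. The 9 windows were not independent, since those of Gzmc, Gzmd, Gzme, Gzmf and Gzmg were 79.7% to 93.7% identical to each other. The window of Gzmb, which lies in the same cluster on chromosome 14, was 46.3% to 51.3% identical to those 5, and all pairs outside the 5 were 45.7% to 55.0% identical.

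The other motifs split the family. The AP-1 motif was found in Gzmb alone, at positions -58 to -52, against 7.81% of all windows. The cyclic AMP response element was found in Gzmc, Gzmf and Gzmg, against 1.79% of all windows. The T-box motif, read by Tbx21 and Eomes, was found in Gzmk alone against 3.98%, and a STAT motif TTCNNNGAA in Gzmb and Gzmm against 8.3%. The Blimp-1 core was found in Gzma against 22.6%, the NFAT core GGAAAA in Gzma and Gzmm against 23.4%, and the Ikaros core TGGGAA in Gzmf and Prf1 against 25.6%. No member held the Foxo motif GTAAACA or the letters TATAAA in this window, against 3.65% and 13.6% of all windows. Only the letters given were searched, so variants of a motif would be missed. The RefSeq start lay 74 bases from the nearest start in GENCODE, another annotation, for Gzmb and 68 for Gzmk. Motif positions and absences in these genes thus depend on the annotation. A match is a description of the sequence and not evidence that a factor binds there.

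**Figure D1:**
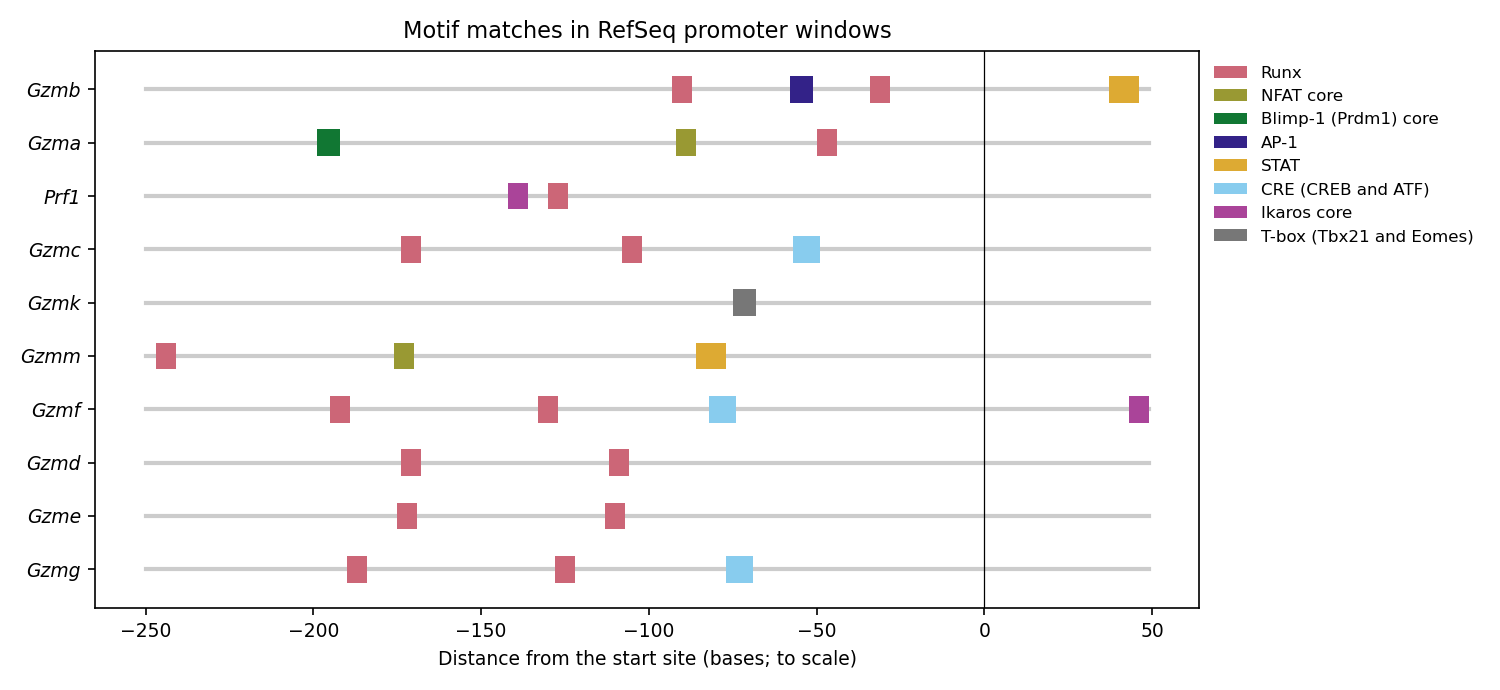
Each line is the RefSeq window of 1 member, drawn to scale by distance from the start site in bases, and coloured boxes are motif matches on either strand. Runx matches (red) appear in 9 of the 10 windows, and the related windows of Gzmc, Gzmd, Gzme, Gzmf and Gzmg carry them at like distances.

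Of the 6 members tested, 5 were called higher in Sora-Treg cells (Gzma, Gzmb, Gzmc, Gzmk and Prf1) and none lower. Among all genes tested, 6.3% were called higher and 4.97% lower. The sixth, Gzmm, was not called. Without the fold limit the same 5 members passed, against 59.6% of all genes, and the groups did not overlap in these 5, against 63.7% of all genes, so passing without a fold limit or not overlapping sets no gene apart here. Gzma, Gzmc and Gzmk passed the filter on low counts only through their Sora-Treg libraries, so of these 3 a difference was a condition of being tested. Added up per length, as FPKM, the 7 measured members came to 8.99, 8.999 and 8.48 in the ctrl-Treg libraries against 312, 312 and 307 in the Sora-Treg libraries. As a share of all counts, they went from between 1.29 and 1.37 to between 42.4 and 43.3 in every 100000 counts.

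Gzmb encodes granzyme B, the main caspase-cleaving granzyme. Its level was 11.3, 10.8 and 9.92 CPM in the ctrl-Treg libraries against 381, 381 and 374 CPM in the Sora-Treg libraries. All 3 Sora-Treg libraries lay far above all 3 ctrl-Treg libraries. The mean went from 10.7 ± 0.690 to 379 ± 3.94 CPM (SD, n = 3), which gave a log2 fold change of 5.14 ± 0.04 SE (adjusted p = 3.54e-28, edgeR). These values rest on 317 to 444 counts per ctrl-Treg library and 11566 to 13333 per Sora-Treg library, and the 50-base windows of its transcript are shared with no other gene of the family.

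Gzma encodes granzyme A, a tryptase whose cleavages do not go through caspases. It had 5, 5 and 6 counts in the ctrl-Treg libraries against 1811, 1937 and 2146 counts in the Sora-Treg libraries. In CPM these were 0.127, 0.137 and 0.188 against 59.6, 60.7 and 60.3. The ctrl-Treg libraries were thus just over the floor while the Sora-Treg libraries stood close together at a moderate level. The log2 fold change of 8.63 ± 0.12 SE (adjusted p = 4.25e-24, edgeR) was the largest of the 13463 genes tested. With 16 counts in all ctrl-Treg libraries together the size of the fold is imprecise: the ratio of pooled counts per library total was 374, with an exact 95% interval of 230 to 655 that covers counting error only. The highest count of Cdc20b, a gene that overlaps Gzma, was 22.

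Prf1 encodes perforin, without which granzymes do not reach the cytoplasm of a target. It had 25, 24 and 25 counts in the ctrl-Treg libraries against 181, 222 and 198 in the Sora-Treg libraries, or 0.635, 0.659 and 0.782 against 5.96, 6.96 and 5.56 CPM. The groups were well separated, though the gene stayed at a low level in both. The log2 fold change was 3.15 ± 0.20 SE (adjusted p = 5.71e-12, edgeR).

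Gzmc, in the same cluster as Gzmb, had 6, 1 and 2 counts in the ctrl-Treg libraries against 50, 13 and 29 in the Sora-Treg libraries. Every Sora-Treg library was higher than every ctrl-Treg library, but the Sora-Treg libraries differed among themselves more, relative to their mean, than for any other member called, with a mean of 0.956 ± 0.632 CPM against 0.0808 ± 0.0644 CPM (SD, n = 3). Its log2 fold change came to 3.46 ± 0.62 SE (adjusted p = 4.98e-05, edgeR) and the pooled ratio was 10.4 (exact 95% interval 5.24 to 23.4). The log2 fold change was 4.32 without ctrl-Treg replicate 1 and 2.84 without Sora-Treg replicate 1. Of the 50-base windows of its transcript, 4.14% are shared with Gzmd, Gzme or Gzmg, so its counts are less certain than those of Gzmb.

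Gzmk encodes granzyme K, a tryptase like granzyme A, near which it lies on chromosome 13. It had 6 counts in each ctrl-Treg library and 15, 23 and 15 counts in the Sora-Treg libraries. The groups did not overlap, at 0.168 ± 0.0180 and 0.545 ± 0.156 CPM (SD, n = 3), and edgeR gave a log2 fold change of 1.68 ± 0.50 SE (adjusted p = 0.00567). The pooled ratio was 2.99 (exact 95% interval 1.72 to 5.43). With ctrl-Treg replicates 1 and 2 left out, a setting chosen after seeing the data, the log2 fold change was 1.52 and the edgeR adjusted p was 0.17. That setting compares 1 ctrl-Treg library with 3 Sora-Treg libraries, takes the spread from the Sora-Treg libraries alone and assumes that the lone library varies like them, so a call kept or lost in it says little.

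Gzmm encodes granzyme M, which cuts after methionine or leucine and lies on chromosome 10. It had 29, 46 and 39 counts in the ctrl-Treg libraries against 20, 34 and 18 in the Sora-Treg libraries. The groups overlapped, since Sora-Treg replicate 2 lay above ctrl-Treg replicate 1. The log2 fold change of -0.53 ± 0.37 SE (adjusted p = 0.235, edgeR) did not pass the test. Gzmf had 0, 2 and 1 counts against 0, 1 and 0, at or under the floor in every library, and was not tested.

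**Figure D2:**
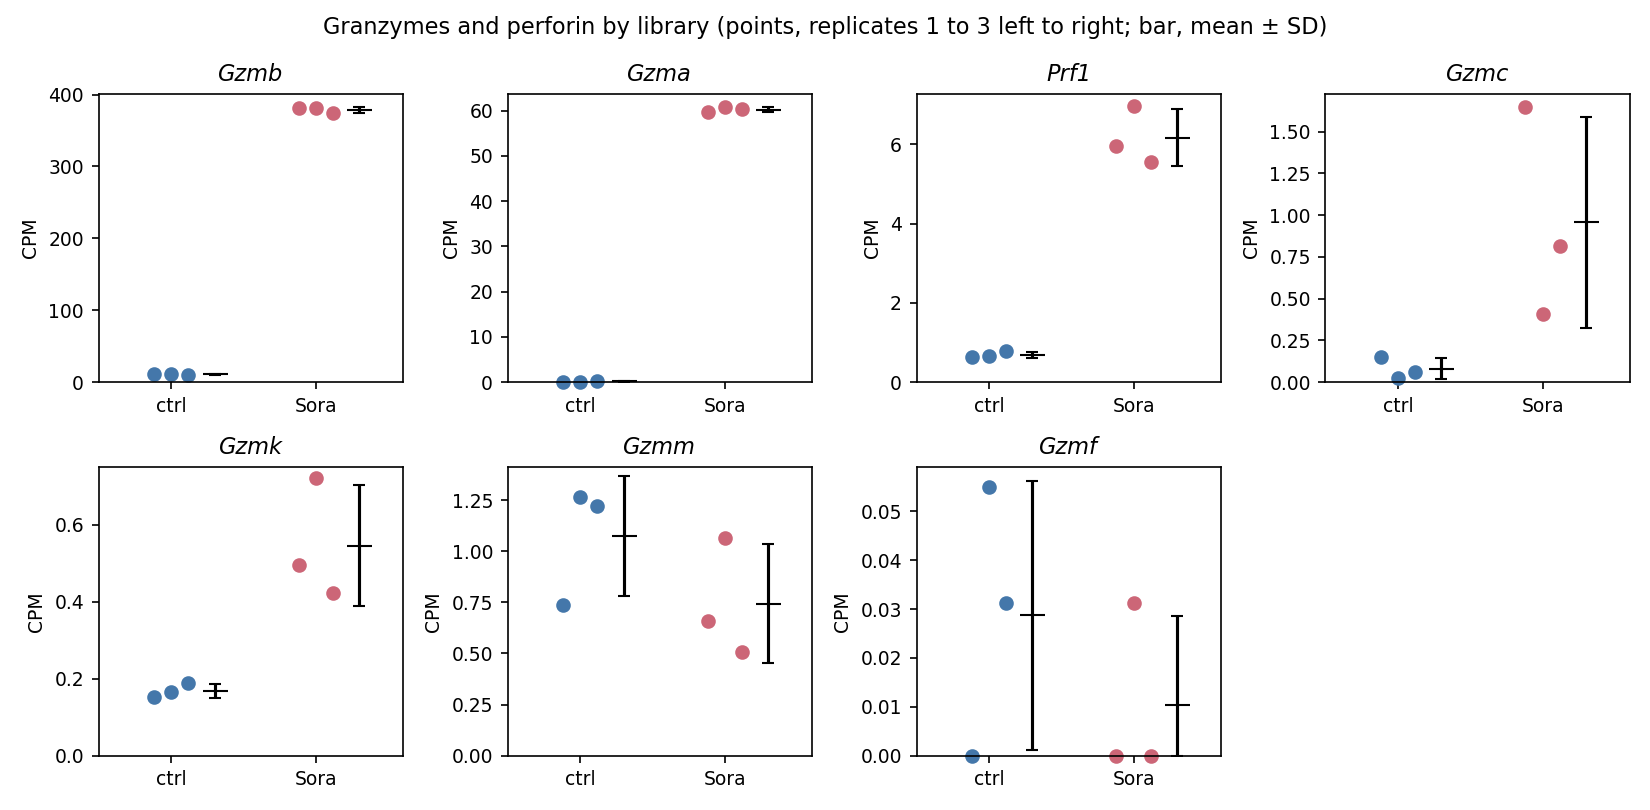
CPM of each measured member in the 3 ctrl-Treg (blue) and 3 Sora-Treg (red) libraries, with the mean and SD beside them, on linear axes that start at 0 and differ in scale between panels. Gzmb, Gzma, Prf1, Gzmc and Gzmk do not overlap between the groups, and Gzmm and Gzmf do.

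The order of the members was compared per length, as FPKM. In ctrl-Treg cells Gzmb led with 7.35 ± 0.488 FPKM, followed by Gzmm with 0.758 ± 0.205, Prf1 with 0.270 ± 0.0306, Gzma with 0.178 ± 0.0382, Gzmk with 0.159 ± 0.0167, Gzmc with 0.0753 ± 0.0602 and Gzmf with 0.0328 ± 0.0315 FPKM (SD, n = 3). Among these, the libraries of Gzma and Gzmk overlapped, as did those of Gzmc and Gzmf. In Sora-Treg cells Gzmb stayed first with 241 ± 2.63 FPKM, Gzma came next with 65.7 ± 0.478, and Prf1 followed with 2.22 ± 0.258. Gzmc, Gzmm and Gzmk came after it with 0.822 ± 0.544, 0.485 ± 0.189 and 0.475 ± 0.136 FPKM, and these 3 overlapped each other. Gzmf was last with 0.0110 ± 0.0191 FPKM.

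Ranked by mean FPKM among all 22939 genes, Gzmb went from place 6266 to place 209, Gzma from 12625 to 818 and Prf1 from 12047 to 8986. All 3 thus moved up in rank. In ctrl-Treg cells Prf1 was behind Gzmb but ahead of Gzma, and in Sora-Treg cells it was far behind both. The ratio of Gzmb to Prf1 in FPKM was 22.4 to 31.3 in the ctrl-Treg libraries against 96.7 to 119 in the Sora-Treg libraries. That of Gzma to Prf1 went from between 0.605 and 0.727 to between 26.4 and 32.8. That of Gzmb to Gzma fell from between 30.8 and 51.7 to between 3.62 and 3.72.

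The makeup of the family differed between the groups. Of the summed FPKM of the 7 members, Gzmb held 83.3% ± 3.10 in ctrl-Treg cells against 77.6% ± 0.125 in Sora-Treg cells, and Gzma held 2.03% ± 0.510 against 21.2% ± 0.263 (SD, n = 3). Gzmm held 8.62% ± 2.44 against 0.156% ± 0.0595. Prf1 held 3.07% ± 0.458 against 0.714% ± 0.0777. Its share was smaller in Sora-Treg cells although its own level was higher.

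**Figure D3:**
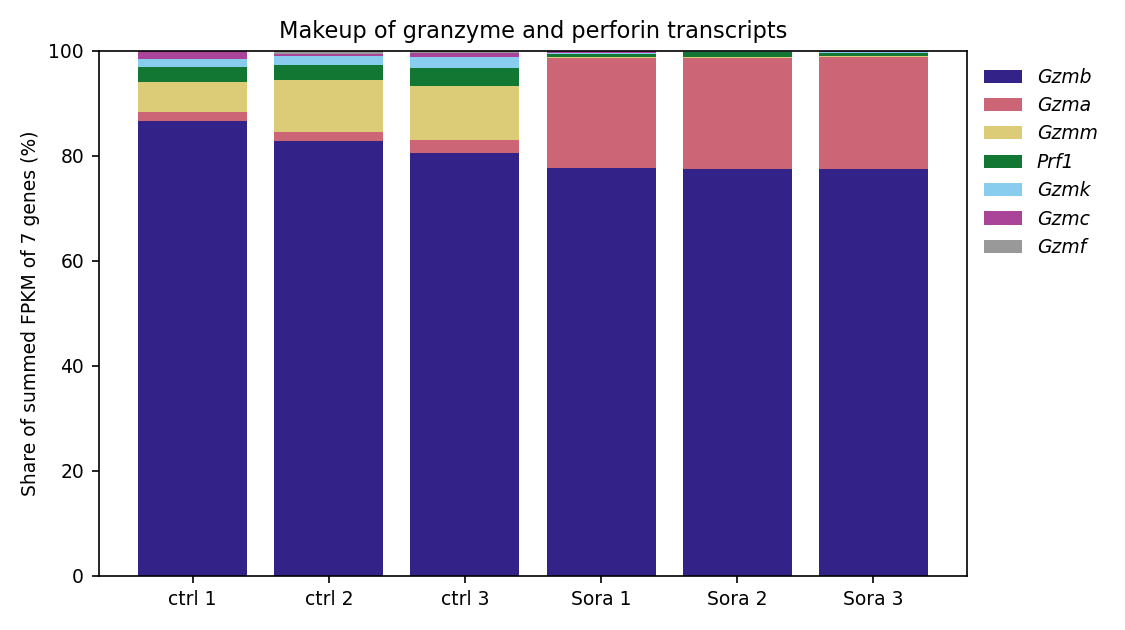
Each bar is 1 library and is divided by the share, in percent, of each member in the summed FPKM of the 7 measured members. Gzmb (dark blue) is the main part in all 6 libraries, and Gzma (red) is 20.9% to 21.4% in the Sora-Treg libraries against 1.67% to 2.61% in the ctrl-Treg libraries.

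Genes whose products act together with granzymes, and proteases and inhibitors near or related to them, were taken from lists written from general knowledge. Of 101 genes tested over the 8 lists, 12 were called higher and 10 lower, against 6.3% and 4.97% of all genes tested. Without the list of related proteases, 10 of 99 were called higher and 10 lower. With ctrl-Treg replicates 1 and 2 left out, which leaves 1 ctrl-Treg library, the counts over the 8 lists were 12 and 9. In bulk RNA, fewer cells of a type and less RNA per cell cannot be told apart, which holds for every level given here.

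Of the list of inhibitors, serpins that block granzymes or other proteases, 6 were tested. Of these, 4 were called lower and 1 higher, against 4.97% and 6.3% of all genes tested. Their median log2 fold change was -1.11 against -0.0035 over all genes tested. Of those called lower, only Serpinb9 and Serpinb6b are described here as tied to a granzyme. Serpinb9, the inhibitor of granzyme B, fell from 27.9, 24.0 and 26.4 CPM in the ctrl-Treg libraries to 10.2, 12.1 and 12.1 CPM in the Sora-Treg libraries, with a log2 fold change of -1.18 ± 0.08 SE (adjusted p = 2.89e-11, edgeR). All 3 Sora-Treg libraries were below all 3 ctrl-Treg libraries. Serpinb6b, a serpin of the same clade that has been tied to granzyme A, fell from 117 ± 1.39 to 57.0 ± 1.05 CPM (SD, n = 3). Its log2 fold change of -1.04 ± 0.04 was close to the limit of 1 (SE, edgeR adjusted p = 1.4e-16). Serpina3g, an inhibitor of cathepsins in T cells, fell from 27.9 ± 1.21 to 10.9 ± 0.423 CPM, and its relative Serpina3f from 0.970 ± 0.110 to 0.0929 ± 0.0555 CPM (SD, n = 3). Serpina3f rests on 30 to 43 counts against 2 to 5 and passed the filter on low counts only through its ctrl-Treg libraries, so a difference was a condition of its being tested. Without it, 3 of 5 tested inhibitors were called lower. Serpinb1a, an inhibitor of neutrophil proteases, went the other way, from 3.54 ± 0.283 to 12.04 ± 0.523 CPM (SD, n = 3), with a log2 fold change of 1.77 ± 0.11 SE (adjusted p = 5.62e-12, edgeR). Serpinb6a was not called, with a log2 fold change of 0.29 ± 0.04 (SE), and Serpinb9b was too low to be tested.

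Of 14 tested genes for granzyme processing and storage, none was called higher and 2 lower, against 6.3% and 4.97% of all genes tested. Their median log2 fold change was 0.02. Nkg7, a membrane protein of cytotoxic granules, was at 27.2, 27.2 and 24.2 CPM in the ctrl-Treg libraries against 6.13, 4.95 and 4.998 CPM in the Sora-Treg libraries. It thus went in the direction opposite to Gzmb, with no overlap, and its log2 fold change was -2.30 ± 0.09 SE (adjusted p = 1.54e-15, edgeR). Ctsh, a cathepsin that can activate granzyme B, fell from 1.40 ± 0.506 to 0.324 ± 0.0811 CPM (SD, n = 3), and was no longer called with limma on log2(FPKM + 1), with or without a filter, or against ctrl-Treg replicate 3 alone, and was not tested with a filter of 1 CPM in 3 libraries. Ctsc, the main activating protease of granzymes, was at 87.6 ± 1.57 and 85.5 ± 2.36 CPM (SD, n = 3, log2 fold change -0.04 ± 0.04 SE, edgeR adjusted p = 0.436). Srgn, the proteoglycan that holds granzymes in the granule, had a log2 fold change of 0.38 ± 0.04, and Cst7, an inhibitor of Ctsc, one of 0.41 ± 0.06 (SE), both short of the limit of 1.

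Of 12 tested genes for granule movement and fusion, none was called higher and 1 lower, against 6.3% and 4.97% of all genes tested. Their median log2 fold change was 0.08. The gene called lower was Sytl2, an effector of Rab27a at the plasma membrane. It fell from 22.9, 20.7 and 26.5 CPM to 3.92, 4.83 and 4.66 CPM, with a log2 fold change of -2.38 ± 0.11 SE (adjusted p = 7.93e-15, edgeR), and the groups did not overlap. Rab27a itself and Sytl1, another Rab27a effector, had log2 fold changes of -0.49 ± 0.04 and -0.89 ± 0.04 (SE). Unc13d, which primes granules for fusion, was at 148 ± 2.66 and 150 ± 5.44 CPM (SD, n = 3), and Stx11 and Stxbp2, which act in fusion, had log2 fold changes of 0.25 ± 0.04 and 0.36 ± 0.04 (SE). None of these 5 was called. Scaling by library totals moved the median of all genes by -0.12, which is more than the medians of the lists for storage and release.

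Among 35 tested transcription regulators of cytotoxic genes, 6 were called higher and 1 lower, against 6.3% and 4.97% of all genes tested. Their median log2 fold change was 0.19. Runx3, the factor that reads the Runx motif together with its relatives, went from 161, 156 and 160 CPM in the ctrl-Treg libraries to 358, 343 and 349 CPM in the Sora-Treg libraries. The groups were well apart, with a log2 fold change of 1.14 ± 0.03 SE (adjusted p = 4.23e-19, edgeR). Nfil3 went from 58.6 ± 1.36 to 196 ± 6.48 CPM, Prdm1, which encodes Blimp-1, from 6.11 ± 0.828 to 16.1 ± 0.774 CPM, Rbpj, the DNA-binding factor of Notch signaling, from 409 ± 5.28 to 951 ± 34.8 CPM, and Id2 from 69.5 ± 2.77 to 158 ± 6.08 CPM (SD, n = 3). Their log2 fold changes were 1.74 ± 0.04 for Nfil3, 1.39 ± 0.10 for Prdm1, 1.22 ± 0.03 for Rbpj and 1.19 ± 0.04 for Id2 (SE, edgeR adjusted p from 1.03e-20 for Nfil3 to 5.95e-11 for Prdm1).

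The T-box factors, which drive granzyme and perforin genes in killer cells, were low in both groups. Eomes went from 2.21 ± 0.120 to 4.53 ± 0.436 CPM (SD, n = 3), with a log2 fold change of 1.03 ± 0.17 SE (adjusted p = 2.02e-05, edgeR). The call of Eomes was lost in 7 of 18 alternatives. Its log2 fold change fell to 0.962 at the lowest with 1 library left out (calls lost without ctrl-Treg replicate 3 or Sora-Treg replicate 2), the call was also lost with upper quartile scaling, library totals and the 3 limma settings, and the lowest value of all was 0.42. Tbx21 was at 2.37 ± 0.253 and 1.66 ± 0.136 CPM (SD, n = 3) and did not pass the test (log2 fold change -0.52 ± 0.23 SE, edgeR adjusted p = 0.0586). Tcf7, a factor of naive and memory T cells, was the 1 regulator called lower, from 404 ± 6.49 to 171 ± 4.88 CPM (SD, n = 3), with a log2 fold change of -1.24 ± 0.03 SE (adjusted p = 7.68e-20, edgeR). Foxo1, at 174 ± 4.13 and 204 ± 2.20 CPM, and Stat3, at 579 ± 9.71 and 994 ± 9.03 CPM (SD, n = 3), were not called, with log2 fold changes of 0.23 ± 0.03 and 0.78 ± 0.02 (SE).

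Of 12 tested receptors for cytokines that raise perforin and granzymes, 2 were called higher and none lower, against 6.3% and 4.97% of all genes. Their median log2 fold change was 0.28. Il12rb2, a chain of the IL12 receptor, went from 22.5 ± 0.340 to 106 ± 4.37 CPM, and Il7r from 59.4 ± 2.97 to 146 ± 9.75 CPM (SD, n = 3). Their log2 fold changes were 2.24 ± 0.05 and 1.30 ± 0.05 (SE, adjusted p = 6.28e-21 and 1.19e-16, edgeR). The chains of the IL2 receptor were close to the limit, with log2 fold changes of 0.97 ± 0.02 for Il2ra and 0.88 ± 0.02 for Il2rb (SE), and were not called.

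Among 13 tested substrates of granzymes, none was called higher and 1 lower, against 6.3% and 4.97% of all genes tested. Their median log2 fold change was -0.31. The gene called lower was Lmnb1, a protein of the nuclear lamina, which fell from 147 ± 0.936 to 73.2 ± 2.44 CPM (SD, n = 3). Its log2 fold change was -1.01 ± 0.04 (SE, adjusted p = 1.31e-16, edgeR), and it was no longer past the limit of 1 without Sora-Treg replicate 1 or 3. Casp8 and Bid, which granzyme B can cleave, were not called, with log2 fold changes of 0.31 ± 0.03 and -0.71 ± 0.07 (SE).

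The other weapons of cytotoxic cells did not follow 1 direction. Of 7 tested death ligands and related cytokines, 1 was called higher and 1 lower, against 6.3% and 4.97% of all genes tested. Their median log2 fold change was 0.07. Fasl, the ligand of the death receptor Fas, was at 1.65, 1.51 and 1.25 CPM in the ctrl-Treg libraries against 12.7, 12.1 and 11.8 CPM in the Sora-Treg libraries. The groups were far apart, with a log2 fold change of 3.04 ± 0.14 SE (adjusted p = 8.49e-15, edgeR), a value next to that of Prf1. Tnf fell from 96.6 ± 3.41 to 33.1 ± 1.78 CPM (SD, n = 3), with a log2 fold change of -1.54 ± 0.05 SE (adjusted p = 6.02e-18, edgeR). Ifng, a cytokine of cytotoxic T cells, was at 1.54 ± 0.166 and 1.61 ± 0.431 CPM (SD, n = 3), and its log2 fold change of 0.07 ± 0.27 did not pass the test (SE, edgeR adjusted p = 0.85).

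Of the protease genes near or related to the granzymes, Gzmn, Cma1, Mcpt4 and Prtn3 had at most 2 counts in any library and were not tested. The 2 tested genes of that list, Ctla2a and Ctla2b, encode inhibitors of cysteine proteases and do not belong to the granzyme cluster. Both were called higher, against 6.3% of all genes tested. Ctla2a went from 49.2 ± 2.19 to 311 ± 6.29 CPM and Ctla2b from 4.14 ± 0.261 to 10.3 ± 1.08 CPM (SD, n = 3), with log2 fold changes of 2.66 ± 0.04 and 1.31 ± 0.12 (SE, adjusted p = 3.42e-24 and 2.36e-09, edgeR). Ctsg, Cma2, Mcpt1, Mcpt2, Mcpt8, Mcpt9 and Elane, the other genes of the list, were not analysed here.

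**Figure D4:**
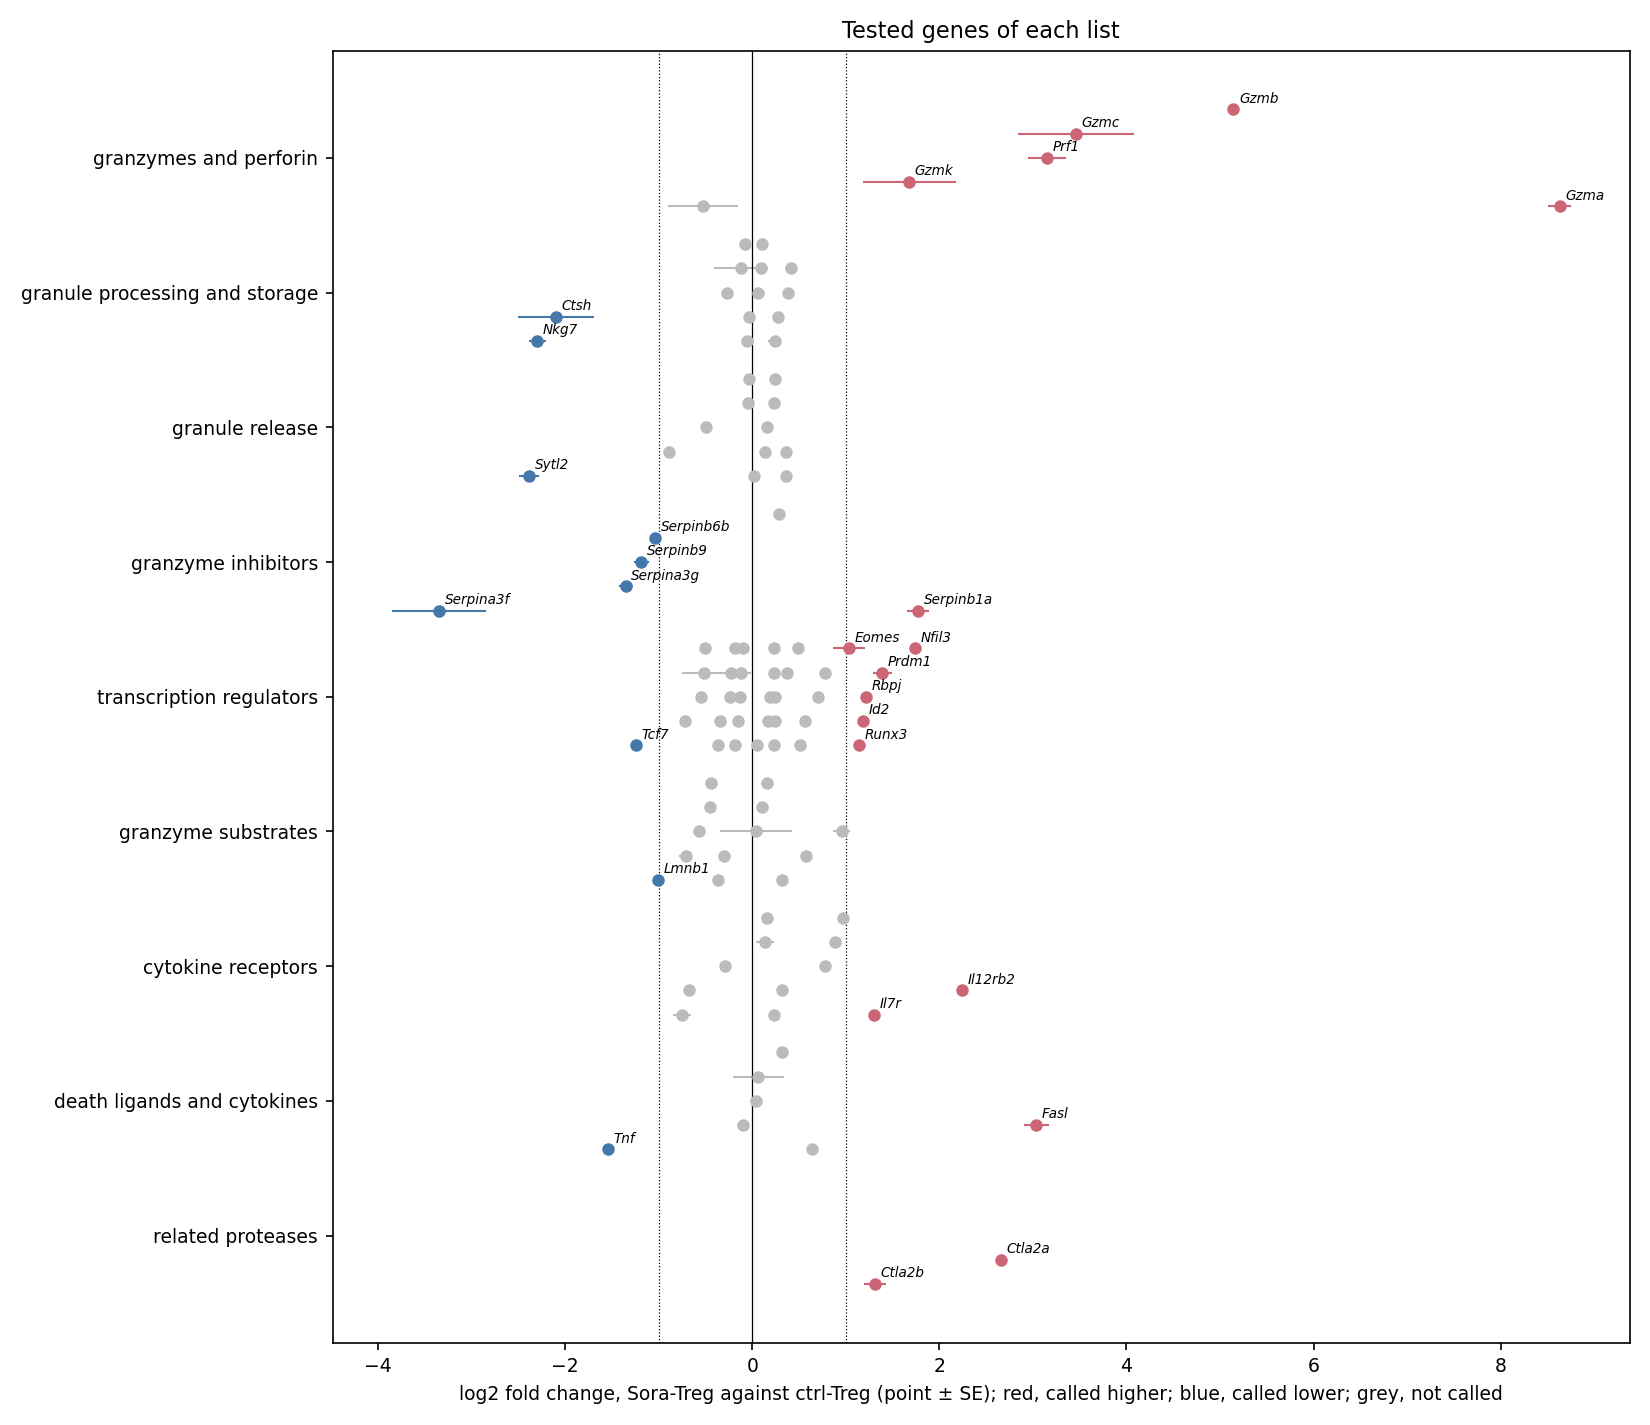
Log2 fold change (Sora-Treg against ctrl-Treg, point ± SE) of every tested gene of each list, by row, with genes called higher in red and genes called lower in blue and both named; dotted lines mark the limits of 1 and -1. Of the granzymes and perforin, 5 of 6 lie right of the upper limit. Of the serpins in the inhibitor list, 4 of 6 lie left of the lower one. Among all genes tested, 6.3% were called higher and 4.97% lower. Gzma, Gzmc, Gzmk and Serpina3f passed the filter on low counts only through the group in which they are higher.

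**Figure D5:**
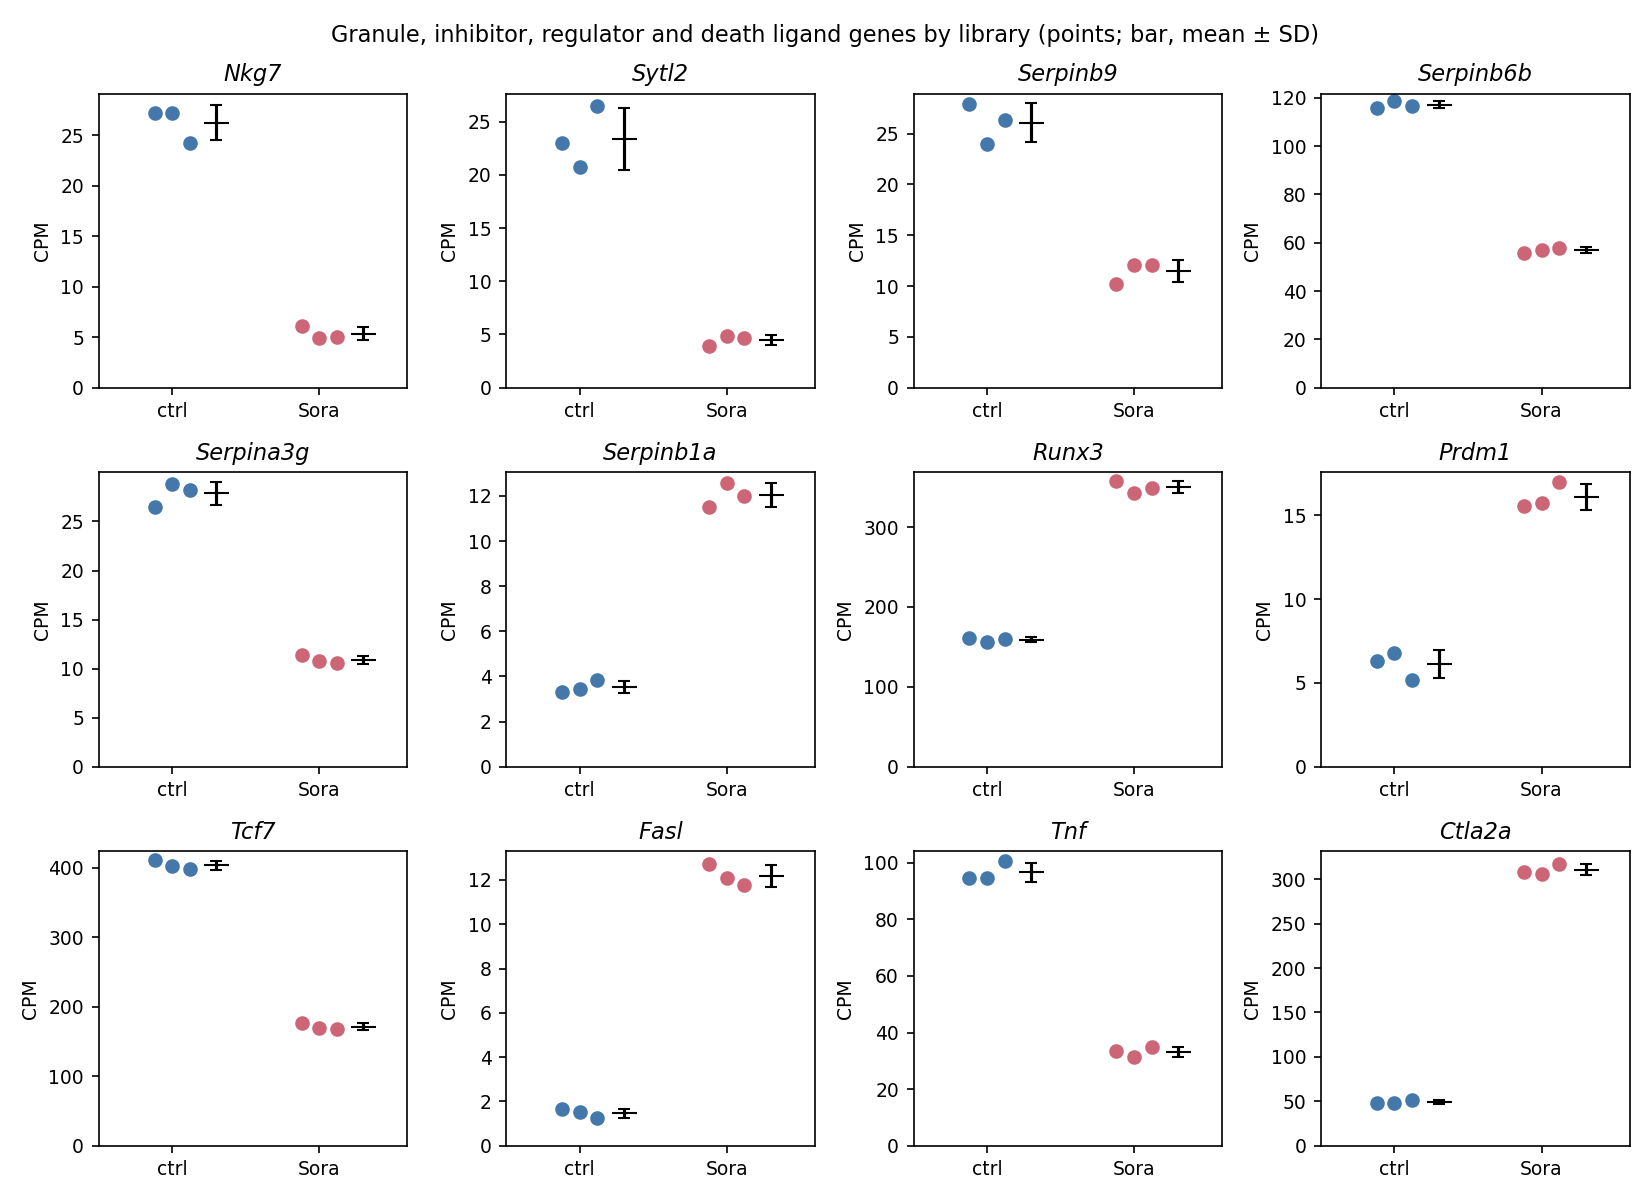
CPM of 12 genes of the lists in the 3 ctrl-Treg (blue) and 3 Sora-Treg (red) libraries, with the mean and SD beside them, on linear axes that start at 0. The 12 were picked from genes called higher or lower. In all of them the groups do not overlap, as in 63.7% of all genes tested. Nkg7, Sytl2, Serpinb9, Serpinb6b, Serpina3g, Tcf7 and Tnf are the lower ones in Sora-Treg cells.

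Markers of other granzyme-bearing cells were measured in the same libraries. Of the markers of CD8 T cells, Cd8a and Cd8b1 summed to 13.2 to 15.1 CPM in the ctrl-Treg libraries against 12.6 to 13.8 CPM in the Sora-Treg libraries. Neither was called, but the 2 differed. Cd8a went from 2.65 ± 0.137 to 1.62 ± 0.186 CPM (SD, n = 3) with no overlap. Its log2 fold change was -0.71 ± 0.22 SE (adjusted p = 0.00872, edgeR). Cd8b1, the larger part of the sum, was at 11.3 ± 1.16 and 11.5 ± 0.586 CPM (SD, n = 3). Of 10 markers of natural killer (NK) cells, 6 were tested. Klrc1, Klrd1 and Eomes were called higher, Fcer1g and Tyrobp lower, and Klrb1f was not called. The shares over all genes tested were 6.3% higher and 4.97% lower. The summed level of the 10 was 5.66 to 8.21 CPM in the ctrl-Treg libraries against 14.8 to 17.1 CPM in the Sora-Treg libraries. Among the NK markers not tested, Klrb1c and Klra7 never exceeded 1 count per library. Klrc2 had 4, 8 and 4 counts in the ctrl-Treg libraries against 3, 25 and 29 in the Sora-Treg libraries. For Klre1 the counts were 1, 1 and 1 against 1, 7 and 3. Klrc1 and Klrd1, which encode the 2 chains of an inhibitory receptor that activated T cells can also carry, rose from 0.737 ± 0.0671 to 5.54 ± 1.02 CPM and from 1.16 ± 0.120 to 3.54 ± 0.607 CPM (SD, n = 3).

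Sox13 and Blk, markers of γδ T cells, had at most 9 counts, with a sum of 0.254 to 0.407 CPM in the ctrl-Treg libraries against 0.0281 to 0.0941 CPM in the Sora-Treg libraries. The 3 mast cell and basophil markers measured had at most 4 counts in any library. Of 6 tested myeloid markers 5 were called lower, against 4.97% of all genes tested. Of 4 B cell markers 3 were tested, and all 3 were called lower. These 3 passed the filter only through their ctrl-Treg libraries, so a difference was a condition of their being tested. The myeloid sum was 24.6 to 92.1 CPM in the ctrl-Treg libraries, highest in replicates 1 and 2, and 20.6 to 42.0 CPM in the Sora-Treg libraries. The B cell sum was 1.53 to 2.39 against 0.251 to 0.365 CPM. With ctrl-Treg replicates 1 and 2 left out, in the comparison with 1 ctrl-Treg library, 4 members were called higher (Gzma, Gzmb, Gzmc and Prf1), with log2 fold changes of 8.30, 5.26, 3.85 and 2.97. The part of these other cells in the results was not tested.

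The genes most like Gzmb across the 6 libraries were found by the root mean square difference of log2 CPM, each gene centred on its own mean. The 5 closest were Pdpn at 0.113, Dysf at 0.192, Cacna1h at 0.255, Pamr1 at 0.263 and Cstdc4 at 0.288. All were low in ctrl-Treg cells, between 0.0906 CPM for Pdpn and 0.241 CPM for Dysf, and reached between 6.09 CPM for Pamr1 and 14.1 CPM for Dysf. Gzmb was higher in both groups than each of these 5. The 0.1 CPM added before taking logs shrinks the folds of genes this low, so genes with larger folds can come out as near. Their edgeR log2 fold changes ran from 5.37 for Cacna1h to 6.19 for Pdpn, all above the 5.14 of Gzmb. Low levels in ctrl-Treg cells are thus partly a product of the measure. Pdpn, Cacna1h and Pamr1 passed the filter on low counts only through their Sora-Treg libraries.

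Gzma had no close match. The nearest genes were Gm36600 at 0.779, Gipr at 0.797 and Tgfb3 at 1.10. Gipr, a receptor for an incretin hormone, went from 3.34 to 275 CPM, and Tgfb3, a TGF-β isoform, from 1.38 to 79.2 CPM on average. Prf1 was closest to Dntt at 0.120, Enpp2 at 0.130 and Lilr4b at 0.139, with mean levels in Sora-Treg cells of 36.4, 21.3 and 75.9 CPM. Gzmk was closest to Akr1c12 at 0.125, Fam24b at 0.130 and Rnf152 at 0.147, and Gzmm to Gm26637 at 0.0759, Gm13830 at 0.119 and Gm46565 at 0.139. With 6 libraries in 2 groups, likeness mainly reflects a similar fold between the groups and says nothing of shared control.

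How far the reads of these genes can be told apart was read from their transcripts in GENCODE vM21. The longest reading frames of Gzmb and Gzmc were 76.8% identical, those of Gzmd and Gzme 94.8%, and those of Gzma and Gzmb 59.3%. No 50-base window of Gzma, Gzmb, Gzmk, Gzmm or Prf1 occurred in a transcript of another gene. The share of such windows was 4.14% for Gzmc and 7.36% for Gzmf, and 19.8% to 21.9% for Gzmg, Gzme and Gzmd. At 100 bases it was 0 for Gzmc and Gzmf.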

How the data were processed

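RNA-seq of 3 ctrl-Treg and 3 Sora-Treg libraries was analysed, grouped by the sample titles. The authors deposited raw counts for 22939 gene symbols and FPKM values for the same genes. Dividing each count by 1 fixed length of its gene and by its library's total gave the deposited FPKM value (largest relative difference 1.64e-06), so FPKM served only to compare genes per length. The methods of the study name GRCm38 and Bowtie2, while the submitters' processing notes list fastp, HISAT2, HTSeq, R 3.2.0, DESeq2 and GRCm39. Which made the counts, and with which strand setting, was not given in the sources used here, so counts of overlapping genes such as Gzma and Cdc20b are uncertain.

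Counts were tested with edgeR 4.0.16 in R 4.3.3 (quasi-likelihood test, TMM scaling, filterByExpr, which keeps a gene over 0.293 CPM in 3 libraries, no covariate, Benjamini-Hochberg adjustment over 13463 genes). Standard errors of fold changes are those implied by the F statistic. The common biological coefficient of variation was 4.29%. Libraries of a group differed by more than sampling noise (chi-square per degree of freedom 3.48 to 6.23), which leaves no sign of a library entered more than once. The calculations were tested on simulated counts. Pooled ratios have exact 95% intervals conditional on the summed counts. Alternatives were RLE, upper quartile and total scaling, 2 other filters, DESeq2 1.42.0, a robust fit, a replicate block, each library left out, and limma 3.58.1 on log2(FPKM + 1), with and without a filter, and on log2(FPKM + 0.1). One more, leaving out ctrl-Treg replicates 1 and 2, was chosen after seeing the data and compares 1 ctrl-Treg library with 3.

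The members and gene lists were chosen with earlier results of these data known. Named were all members, at most 4 called genes per list and direction by fold that averaged at least 1 on the log2 CPM scale, genes that a count of 5 or fewer needs, and the genes most like Gzmb (5) and like Gzma, Prf1, Gzmk and Gzmm (3 each), with a pseudocount of 0.1 CPM. Other list genes named were chosen for their role, after their values were seen. Promoter windows were RefSeq sequence on GRCm38.p6, with matches found on both strands. Identities were computed with Biopython 1.88. Protein sequences were not used here, and 2 genes of the substrate list are not reported here and enter no list count.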

Additional observations from a re-analysis of the deposited data

How the results depend on the processing

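Under 18 alternatives no member changed direction. The log2 fold change ranged from 5.82 to 8.79 for Gzma, 4.86 to 5.26 for Gzmb, 1.34 to 3.24 for Prf1, 0.72 to 4.32 for Gzmc, 0.34 to 1.84 for Gzmk and -0.88 to -0.24 for Gzmm, the lowest of the first 5 with limma on log2(FPKM + 1), whose pseudocount shrinks low genes. The adjusted p stayed under 0.05 for Gzma, Gzmb, Prf1 and Gzmc wherever tested, and for Gzmk in all but the added setting, and it was 0.0844 to 0.554 for Gzmm. The count of members called higher was 5 but fell to 3 (Gzma, Gzmb and Prf1) with a filter of 1 CPM in 3 libraries, which removes Gzmc and Gzmk, to 3 with limma on log2(FPKM + 1), with or without a filter, and to 4, without Gzmk, with ctrl-Treg replicates 1 and 2 left out, which leaves 1 ctrl-Treg library. None was called lower in any setting. The count of list genes called higher was 10 to 12, and of those called lower 7 with limma on log2(FPKM + 1), with or without a filter, and 8 to 11 otherwise. With each library left out, 5 members were called higher every time. The replicate block gave 5 members higher, 12 list genes higher and 10 lower, as without it. Deviations from the group mean in libraries with the same number had correlations of -0.0311, 0.0813 and 0.0430. Pairs with differing numbers were not set beside them, so these values cannot decide whether libraries with the same number share an origin. Scaling by totals moved the median of all genes by -0.12. Depth limits Gzmf, Gzmc, Gzmk and the ctrl-Treg level of Gzma.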

Other observations

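Genes next to the members were read from RefSeq on GRCm38.p6, and their values were chosen for mention after being seen. Gzma and Gzmk lie on chromosome 13 with 1 listed gene between them, 1700084D21Rik, which had at most 1 count in any library. On the other side of Gzma lies Gpx8, which encodes a peroxidase of the endoplasmic reticulum. It had 3, 3 and 1 counts in the ctrl-Treg libraries against 36, 10 and 26 in the Sora-Treg libraries, with a log2 fold change of 3.44 ± 0.63 SE (adjusted p = 6.32e-05, edgeR). Gpx8 passed the filter on low counts only through its Sora-Treg libraries, so a difference was a condition of its being tested. Cdc20b, which overlaps Gzma, had 1, 4 and 1 counts against 22, 9 and 13 and was below the filter. In both genes every Sora-Treg library was above every ctrl-Treg library, at levels far under that of Gzma. The groups did not overlap in 63.7% of all genes tested, so this sets neither gene apart. Gzma varied little among the Sora-Treg libraries, while Gpx8 was lowest in replicate 2, as Gzmc on chromosome 14 was with 50, 13 and 29 counts. By the measure of likeness used for the other members, Gpx8 was the gene nearest to Gzmc, at 0.341.

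On chromosome 10, Cdc34, a ubiquitin-conjugating enzyme gene next to Gzmm, was at 63.6 CPM in ctrl-Treg and 47.1 CPM in Sora-Treg cells on average. Its log2 fold change was -0.43 ± 0.05 SE (adjusted p = 2.25e-07, edgeR), of about the size of the change in Gzmm, which did not pass the test.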
